A study of Mus musculus with 6 samples.

Results

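The lysosomal cathepsins described here are 10 genes, Ctsc, Ctsh, Ctsz, Ctsb, Ctsl, Ctsf, Ctsk, Ctss, Ctsd and Ctsa, each with 1 probe among the 23466 probes of the array, which name 16384 genes. The probes were found through the gene symbols of the probe annotation, and Ctsa was listed there under its older symbol, Ppgb. Ctsc was chosen by its measured rise in the heterozygous arrays, so its values in those arrays are a description and carry no test. The other members were taken as its family, with earlier results of these arrays known. Of the 10 probes, 8 had a value on all 6 arrays and were tested, and those of Ctsk and Ctss were not.

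The cells were neural stem cells of C57BL6 mice, taken from the brain at postnatal day 0 and grown untreated in DMEM/F12 medium that held bFGF, EGF and heparin. Ecrg4 encodes a secreted precursor of small peptides, and its genotype was labelled homozygous, heterozygous or wild type, with 2 arrays for each label. The sources used here do not say how the allele was altered, or whether both arrays of a label stem from different mice or cultures. The p-values therefore measure array-to-array spread, which could be purely technical. Total RNA was amplified and hybridised to 1-colour arrays, and values are intensities on a linear scale.

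Cathepsins are proteases of the endosome and lysosome, the acidic compartments in which cells break down proteins delivered by endocytosis and autophagy. They are made as inactive precursors, sorted to the lysosome mostly by mannose 6-phosphate receptors, and activated there by removal of a propeptide. Most are cysteine proteases related to papain, while cathepsin D is an aspartic protease and cathepsin A a serine carboxypeptidase. Cystatins are small proteins that block the cysteine cathepsins. Many lysosomal genes, several cathepsins among them, are targets of the transcription factor TFEB, which binds a sequence with the core CACGTG.

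The promoter windows of 3 members are shown because Ctsc and Ctsz differed most between genotypes, while Ctsd, which differed less, carries the core read by TFEB. Each window is from RefSeq, build GRCm38.p6, and runs 5′ to 3′ on the gene's strand from 250 bases before a transcript start into the first 50 transcribed bases. Capitals mark CACGTG. The window of Ctsc is chr7:88277835-88278134 on the plus strand, that of Ctsz chr2:174438990-174439289 on the minus strand, and that of Ctsd chr7:142387778-142388077 on the minus strand.
Ctsc: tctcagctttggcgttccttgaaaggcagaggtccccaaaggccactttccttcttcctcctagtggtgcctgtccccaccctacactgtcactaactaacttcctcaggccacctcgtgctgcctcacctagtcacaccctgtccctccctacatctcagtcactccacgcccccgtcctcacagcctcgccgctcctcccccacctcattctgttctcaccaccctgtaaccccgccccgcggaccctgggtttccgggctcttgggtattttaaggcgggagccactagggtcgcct
Ctsz: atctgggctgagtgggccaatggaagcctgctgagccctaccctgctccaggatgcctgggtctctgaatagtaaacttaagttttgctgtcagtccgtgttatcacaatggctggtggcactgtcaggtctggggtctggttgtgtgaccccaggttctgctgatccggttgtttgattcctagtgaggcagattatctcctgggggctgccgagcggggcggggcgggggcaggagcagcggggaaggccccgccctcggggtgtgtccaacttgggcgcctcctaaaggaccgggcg
Ctsd: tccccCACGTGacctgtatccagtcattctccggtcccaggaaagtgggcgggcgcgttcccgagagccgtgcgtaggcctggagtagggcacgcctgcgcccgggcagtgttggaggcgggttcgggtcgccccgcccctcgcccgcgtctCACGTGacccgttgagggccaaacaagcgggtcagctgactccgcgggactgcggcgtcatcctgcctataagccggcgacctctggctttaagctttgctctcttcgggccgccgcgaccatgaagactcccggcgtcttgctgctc

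RefSeq windows were matched for 8 of the 10 members, not for Ctsb and Ctsh, with 9 windows in all, since Ctsa had 2. CACGTG, which reads the same on both strands, stood in windows of 4 members, Ctsd, Ctsa, Ctsl and Ctsf, and in 7.15% of all 32851 windows. The longer TCACGTGA, which contains that core, stood in windows of Ctsd and Ctsa and in 0.974% of all windows. The same letters with a G before and a C after them were in no member's window and in 0.326% of all windows. These letters were not found in the windows of Ctsc, Ctsz, Ctsk and Ctss, and the motifs were chosen with the members' values known. A match is a description of the letters and not of binding.

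As a check of the labels, Ecrg4 read 1.4 and 1.3 on the arrays labelled homozygous, 345.5 and 373.9 on those labelled heterozygous and 112.9 and 154.9 on those labelled wild type. The probe fitted the homozygous label, yet its level was higher under the heterozygous than under the wild-type label, so each direction below refers to the arrays as labelled. Of 14 tested neural stem cell markers, 13 exceeded a background reference on all 6 arrays. That reference is the 95th percentile of 663 probes of olfactory receptor genes, between 50.5 and 57.6 per array, and a probe under it is called dim here. Of the 14 markers, 1 passed, Notch1, as lower in homozygous against heterozygous (limma adjusted p = 0.0450), where 1.43% of all probes passed as lower. The 2 wild-type arrays were the least alike of the same-label pairs, with r = 0.989 across 20434 probes, against 0.994 for the homozygous and 0.993 for the heterozygous pair. Wild-type array 2 was slightly closer to heterozygous array 1 (r = 0.990) than to wild-type array 1, so the wild-type pair did not stand apart by this measure. Wild-type array 1 was the lowest of the 6 for 6 of the 8 tested cathepsins and for 31.5% of all tested probes. Values without it are given for the cathepsins where it decides a result. Counts and medians of the other gene lists were not computed without it.

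Ctsc encodes cathepsin C, an exopeptidase that cuts dipeptides from the start of proteins and activates granule serine proteases in leukocytes. Its probe, M200000242, read 101.1 and 119.2 on the homozygous arrays, 227.8 and 207.4 on the heterozygous arrays and 27.5 and 26.2 on the wild-type arrays. The 3 labels did not overlap, with the heterozygous arrays highest and the wild-type arrays dim. The level of Ctsc in heterozygous arrays was 8.10-fold that in wild type (log2 fold change 3.02 ± 0.16, SE of the limma fit), a value given without a test because it chose the gene. With the dim wild-type arrays set at the background reference, it was at least 3.93-fold higher. Likewise without a test, Ctsc was 1.98-fold lower in homozygous than in heterozygous arrays.

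Between homozygous and wild type, whose difference does not use the heterozygous values, Ctsc rose by 2.03 ± 0.16 on the log2 scale, or 4.09-fold (95% interval 3.13 to 5.34, limma adjusted p = 0.00819, n = 2 arrays each). With the background reference for wild type the rise was at least 1.99-fold. The call ended without wild-type array 1 (adjusted p = 0.0505), homozygous array 1 (0.0859) or homozygous array 2 (0.123), with the rise between 1.91 and 2.15 log2 units over the arrays left out in turn. Ctsc was the 1 cathepsin of 8 tested that passed in this comparison, where 0.92% of all 20434 probes passed in either direction and 0.431% passed as higher. The comparison shares its wild-type arrays and its estimate of spread with the values that chose Ctsc, so it is not independent of that choice.

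**Figure D1:**
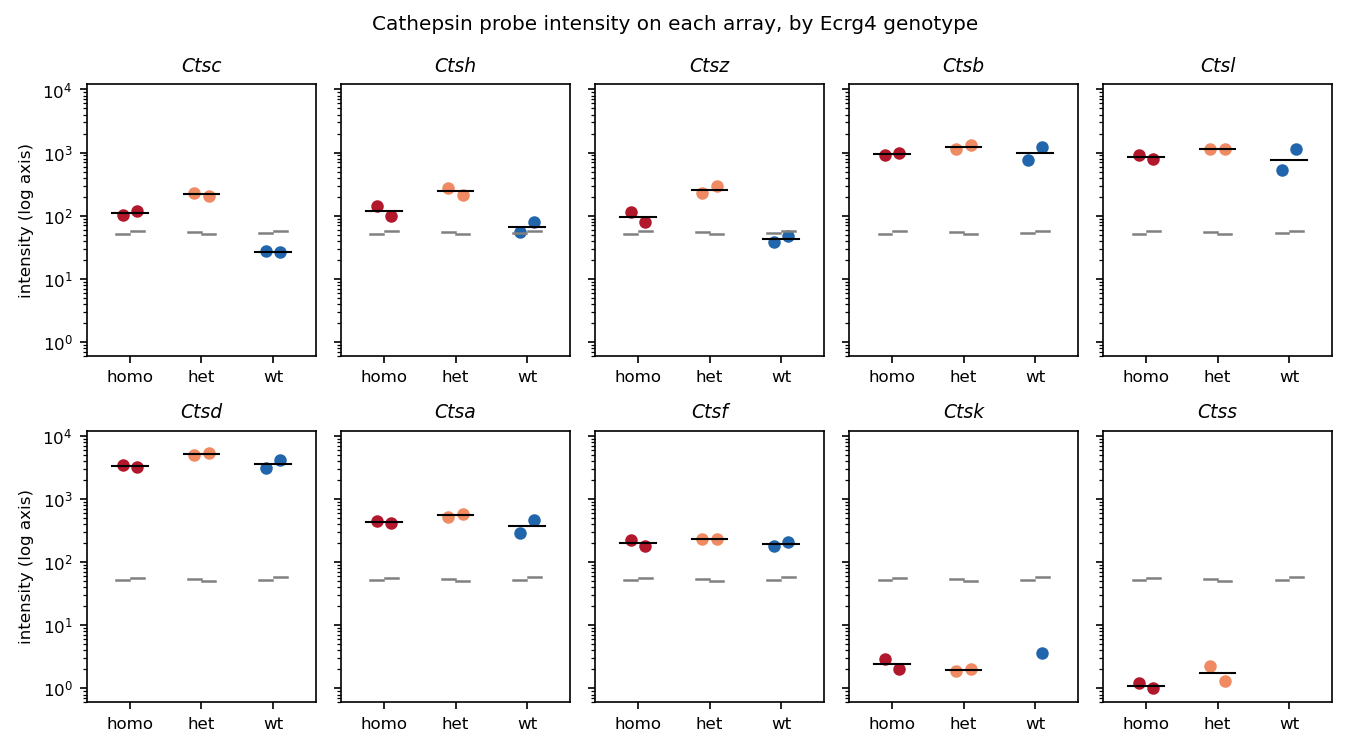
Intensity of each cathepsin probe (log axis) on the 2 arrays labelled homozygous (homo), heterozygous (het) and wild type (wt). Points are arrays, black lines their geometric means where both have a value, and grey ticks the olfactory receptor reference level per array. Ctsc, Ctsh and Ctsz are separated by label, Ctsk and Ctss lie far under the ticks, and no order between genes can be read from different probes.

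Ctsz encodes cathepsin Z, a carboxypeptidase that removes single residues from the end of proteins. Its probe, M200009892, read 116.3 and 80.6 on the homozygous arrays, 227.7 and 292.3 on the heterozygous arrays and 38.7 and 47.2 on the wild-type arrays. As with Ctsc, the labels did not overlap and the wild-type arrays were dim. Ctsz rose in heterozygous against wild-type arrays by 2.59 ± 0.24 on the log2 scale, or 6.04-fold (95% interval 4.03 to 9.05, limma adjusted p = 0.0138), and by at least 4.67-fold against the background reference. It fell by 1.41 ± 0.24 log2 units in homozygous against heterozygous arrays, 2.66-fold lower (adjusted p = 0.0426).

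Between homozygous and wild-type arrays Ctsz gave 1.18 ± 0.24 on the log2 scale, which did not pass (limma adjusted p = 0.0868). With the dim wild-type arrays set at the background reference, it was at least 1.75-fold higher. The call between heterozygous and wild type ended without wild-type array 1 (adjusted p = 0.0980), heterozygous array 1 (0.0611) or heterozygous array 2 (0.0899), with changes between 2.41 and 2.77 log2 units. The call between homozygous and heterozygous ended when any 1 of the 6 arrays was left out, with adjusted p between 0.0574 and 0.245.

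Ctsh encodes cathepsin H, mainly an aminopeptidase, which among other roles takes part in the processing of surfactant proteins in the lung. Its probe, M200000863, read 144.7 and 99.1 on the homozygous arrays, 277.6 and 212.0 on the heterozygous arrays and 55.5 and 78.9 on the wild-type arrays. All 6 values lay above the background reference of their array and the labels did not overlap. In heterozygous against wild-type arrays Ctsh gave 1.87 ± 0.27 log2 units, 3.67-fold (95% interval 2.31 to 5.81), just short of the threshold (limma adjusted p = 0.0512). It gave -1.02 ± 0.27 between homozygous and heterozygous (adjusted p = 0.126) and 0.86 ± 0.27 between homozygous and wild type (adjusted p = 0.182). Leaving out any 1 array left the call between heterozygous and wild type short of the threshold, with adjusted p between 0.0539 and 0.223, while 4 of 13 alternative settings passed it (0.00266 to 0.0385).

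Besides Ctsc, 2 of 7 tested cathepsins, Ctsh and Ctsz, had levels in the order heterozygous, homozygous, wild type with no overlap between labels, as did 1.67% of all tested probes. By genotype means 5 of these 7 had that order, as did 13.8% of all tested probes.

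Ctsb encodes cathepsin B, an abundant lysosomal cysteine protease that acts both as an endopeptidase and as a carboxydipeptidase. It read 914.0 and 973.8 on the homozygous arrays, 1125.9 and 1306.9 on the heterozygous arrays and 774.5 and 1217.1 on the wild-type arrays. The wild-type arrays lay on both sides of the homozygous ones. The log2 fold change of Ctsb was 0.32 in heterozygous against wild type (95% interval -0.26 to 0.90) and -0.04 in homozygous against wild type (-0.62 to 0.54), and neither passed.

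Ctsl encodes cathepsin L, a broad lysosomal endopeptidase. It read 919.5 and 802.9 on the homozygous arrays, 1147.8 and 1157.3 on the heterozygous arrays and 524.9 and 1128.9 on the wild-type arrays. The wild-type pair was the most spread of all the tested members' pairs, its arrays differing 2.15-fold. Its log2 fold change in heterozygous against wild type was 0.58 (95% interval -0.25 to 1.42), which became 0.03 on leaving out wild-type array 1 and 1.13 on leaving out the other one.

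Ctsd encodes cathepsin D, the main aspartic protease of the lysosome, whose loss causes a neuronal storage disease in mice. It read 3472.3 and 3205.3 on the homozygous arrays, 5003.3 and 5357.0 on the heterozygous arrays and 3131.3 and 4228.3 on the wild-type arrays. The heterozygous arrays lay above the 4 others. In homozygous against heterozygous arrays Ctsd gave -0.63 ± 0.19 log2 units (95% interval -1.09 to -0.18, limma adjusted p = 0.155), and in heterozygous against wild type 0.51 ± 0.19 (adjusted p = 0.331).

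Ctsa encodes cathepsin A, a serine carboxypeptidase that also protects beta-galactosidase and neuraminidase in a lysosomal complex. It read 451.3 and 411.3 on the homozygous arrays, 524.9 and 583.1 on the heterozygous arrays and 288.8 and 474.7 on the wild-type arrays. The heterozygous arrays were again the highest, and the log2 fold change against wild type was 0.58 (95% interval -0.03 to 1.19, limma adjusted p = 0.379), or 0.22 without wild-type array 1.

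Ctsf encodes cathepsin F, a cysteine endopeptidase with an unusually long propeptide. It read 228.7 and 178.0 on the homozygous arrays, 233.6 and 232.9 on the heterozygous arrays and 182.8 and 210.3 on the wild-type arrays. Its highest value was 1.31-fold its lowest, the narrowest range among the tested members, against 8.69-fold for Ctsc. The log2 fold change of Ctsf was 0.25 in heterozygous against wild type (95% interval -0.19 to 0.69) and 0.04 in homozygous against wild type (-0.40 to 0.48).

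Ctsk and Ctss were dim on every array with a value. Ctsk, the collagen-degrading cathepsin of osteoclasts, read 2.9 and 2.0 on the homozygous arrays, 1.9 and 2.0 on the heterozygous arrays and 3.6 on wild-type array 2, with a blank on wild-type array 1. Ctss, the cathepsin of antigen-presenting cells and microglia, read 1.2 and 1.0 on the homozygous arrays, 2.3 and 1.3 on the heterozygous arrays, and was blank on both wild-type arrays. No fold is given for either gene.

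**Figure D2:**
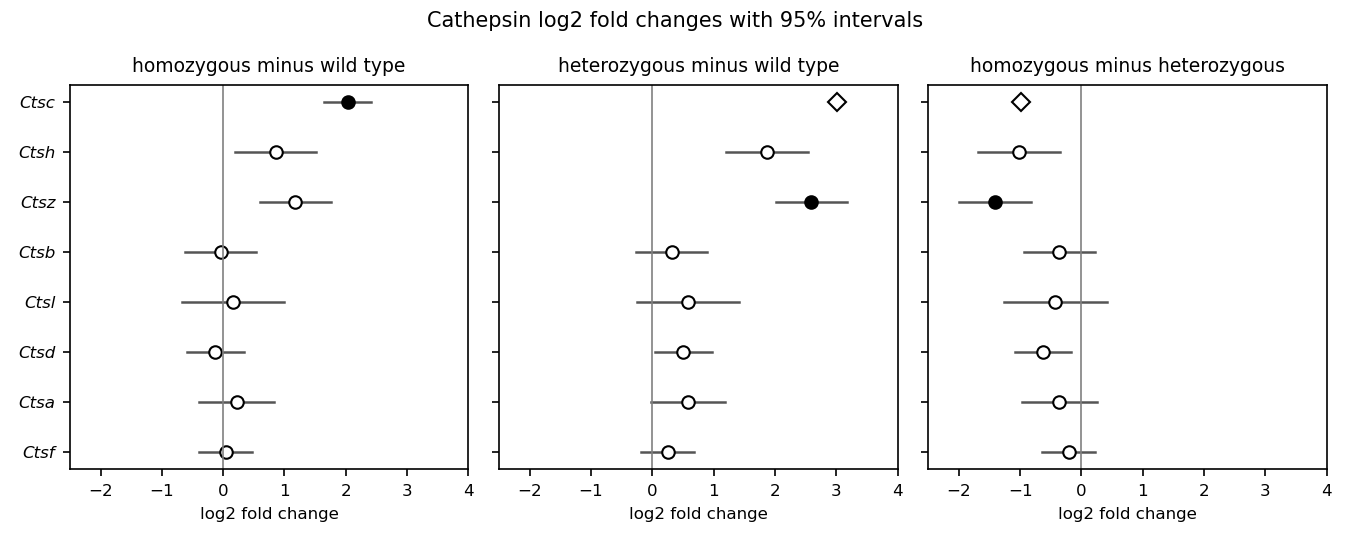
Log2 fold changes of the 8 tested cathepsins in 3 comparisons of the labels, with 95% intervals of the limma fit as bars. Filled circles passed an adjusted p of 0.05, open circles did not, and diamonds are the values of Ctsc that chose it, with no test or interval. In homozygous minus heterozygous all 8 values lie below 0, from -1.41 to -0.21.

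Ctsc is left out of the counts of the family, since its heterozygous values chose it. Across the 7 other tested cathepsins the median log2 fold change was 0.58 in heterozygous against wild type, -0.42 in homozygous against heterozygous and 0.16 in homozygous against wild type, where all 20434 tested probes had medians of -0.01, 0.04 and 0.02. In heterozygous against wild type, 6 of 7 were higher with no overlap, where 21% of all probes were. Of the 7, 1 passed, where 0.749% of all probes passed in either direction and 0.411% as higher. In homozygous against heterozygous, 7 of 7 were lower with no overlap, against 25.9% of all probes, and 1 of 7 passed, against 2.69% of all probes passing in either direction and 1.43% as lower. In homozygous against wild type, 2 of 7 were higher with no overlap, against 25.7% of all probes. By sign alone, 7 of 7 lay above 0 in heterozygous against wild type and 5 of 7 in homozygous against wild type, where 48.6% and 52.2% of all probes did, and 0 of 7 lay above 0 in homozygous against heterozygous, where 54.5% did. These comparisons share arrays, so their directions are not separate observations.

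The median of the 7 in heterozygous against wild type was 0.22 without wild-type array 1, with 6 above 0, and 0.94 without wild-type array 2. In homozygous against wild type it was -0.14 without wild-type array 1, with 2 above 0, and 0.58 without wild-type array 2. In homozygous against heterozygous it lay between -0.52 and -0.41 when a homozygous or heterozygous array was left out, with all 7 below 0 each time.

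Outside the 10 members, the other cathepsin family genes were mostly dim. Of 5 tested, Ctso alone exceeded the background reference on all 6 arrays. Ctso encodes cathepsin O, a lysosomal cysteine protease, was named after its values were seen, and read 135.5 and 101.3 on the homozygous arrays, 124.5 and 125.0 on the heterozygous arrays and 125.8 and 129.3 on the wild-type arrays. Its log2 fold change was -0.03 in heterozygous against wild type, with heterozygous values at or under those of wild type, and no gene of the list passed in any comparison.

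Of the 12 tested cathepsin inhibitors, 2 exceeded the background reference on all 6 arrays, Cst3 and Cstb. Cst3, the abundant secreted inhibitor cystatin C, read 2770.0 and 2798.6 on the homozygous arrays, 7364.7 and 7844.3 on the heterozygous arrays and 4916.8 and 5743.1 on the wild-type arrays. Its homozygous arrays were the lowest of the 6, and it fell by 1.45 ± 0.15 log2 units against heterozygous (limma adjusted p = 0.0119). Against wild type the homozygous arrays gave -0.93 ± 0.15 (adjusted p = 0.0580).

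Cstb, the cytosolic inhibitor cystatin B, read 507.2 and 569.1 on the homozygous arrays, 1247.4 and 1297.8 on the heterozygous arrays and 813.5 and 1114.3 on the wild-type arrays. It too was lowest in homozygous arrays, with -1.24 ± 0.19 log2 units against heterozygous (limma adjusted p = 0.0339) and -0.83 ± 0.19 against wild type (adjusted p = 0.115). Cst6, cystatin E/M, passed on a dim probe, reading 12 and 12.6 on the homozygous arrays, 27.2 and 28.9 on the heterozygous arrays and 12.1 and 14.2 on the wild-type arrays. Over the 12 tested inhibitors 3 passed as lower in homozygous against heterozygous, 1 passed as higher in heterozygous against wild type and 0 passed in homozygous against wild type, where 2 had an unadjusted p under 0.05. Among all probes 1.43% passed as lower in the first of these comparisons and 0.411% as higher in the second. In homozygous against wild type 19% of all probes had an unadjusted p under 0.05. The 3 calls between homozygous and heterozygous each ended when any 1 homozygous or heterozygous array was left out, with limma adjusted p from 0.0703 to 0.123 for Cst3, 0.130 to 0.219 for Cstb and 0.0950 to 0.171 for Cst6. That of Cst6 between heterozygous and wild type ended without any 1 array other than wild-type array 2. Of the 12, 10 were dim on all arrays, and the list's median was 0.10 in homozygous against heterozygous.

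**Figure D3:**
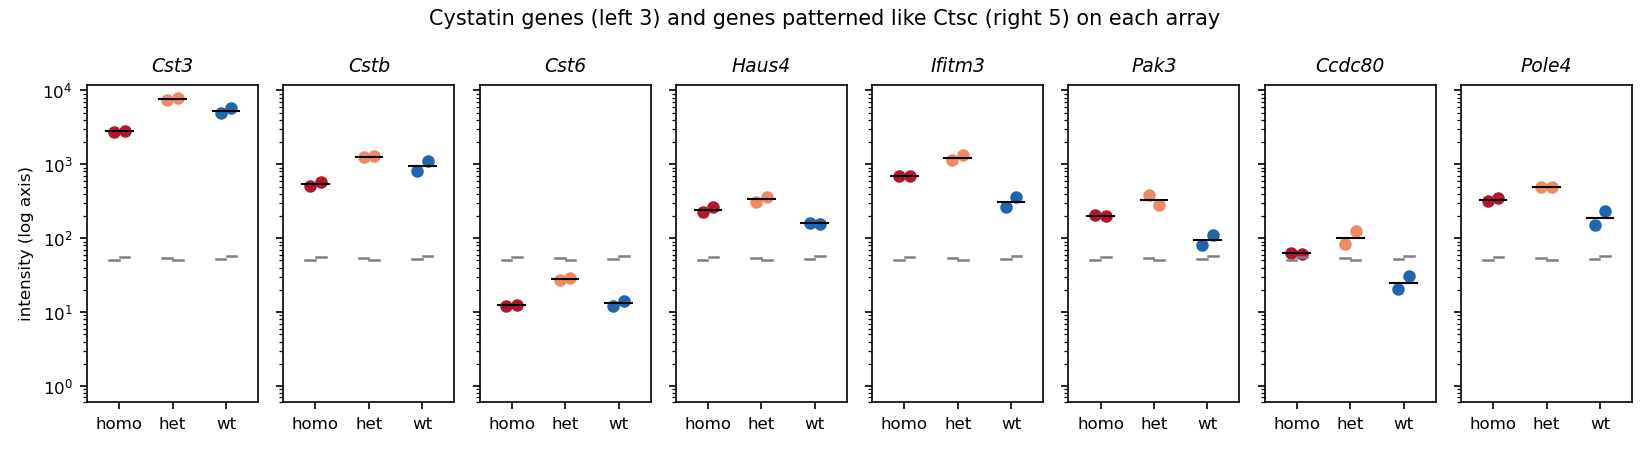
Intensity (log axis) of 3 cystatin genes and of the 5 genes whose pattern was most like that of Ctsc, on the 2 arrays of each label (homo, het, wt). Black lines are geometric means and grey ticks the olfactory receptor 95th percentile of each array. Cst3 and Cstb are lowest in the homozygous arrays, where Ctsc lies between the other labels.

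The other genes of the lysosome were read by list, and their difference from the cathepsins was not tested. The glycosidases, lipases, sulfatases and phosphatases had medians of -0.01 in homozygous against wild type, 0.19 in heterozygous against wild type and -0.16 in homozygous against heterozygous over 32 genes, and limma called 0 of them in each. At an unadjusted p under 0.05 there were 4, 3 and 6, where 19%, 13.5% and 18.2% of all probes were. In heterozygous against wild type 25 of the 32 lay above 0, where 48.6% of all probes did, a count not computed without wild-type array 1. The V-ATPase subunits, which pump protons into the lysosome, had medians of 0.12, 0.15 and -0.03 over 15 genes with 0 called and 3 at an unadjusted p under 0.05 in each comparison. Of 19 lysosomal membrane proteins 1 passed, in homozygous against heterozygous, where 2.69% of all probes passed, and 2, 4 and 5 had an unadjusted p under 0.05 in the 3 comparisons. The gene that passed was that of the sialic acid exporter, Slc17a5. It read 109.7 and 113.9 on the homozygous arrays, 216.8 and 243.3 on the heterozygous arrays and 168.7 and 208.9 on the wild-type arrays, and fell by 1.04 ± 0.17 log2 units in homozygous against heterozygous (limma adjusted p = 0.0385). This call ended without any 1 homozygous or heterozygous array, with adjusted p from 0.125 to 0.236.

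The genes that sort lysosomal enzymes, over 14 genes, and those that regulate lysosomal genes, over 10, had 0 called by limma in each comparison. At an unadjusted p under 0.05 the sorting genes had 3 in homozygous against wild type, 1 in heterozygous against wild type and 4 in homozygous against heterozygous. The regulators had 1, 2 and 2, and of all probes 19%, 13.5% and 18.2% were under it in the same comparisons. Tfeb, Tfe3 and Mitf, the MiT family regulators of lysosomal genes, named after their values were seen, were dim on all 6 arrays. The other lysosomal proteases had medians of 0.25, 0.31 and -0.06 over 9 genes, with 0 called. At an unadjusted p under 0.05 there were 2, 2 and 1, against 19%, 13.5% and 18.2% of all probes. Among these proteases Lgmn, the legumain that cleaves several cathepsins to their mature chains, was named after its values were seen. It read 447.8 and 454.5 on the homozygous arrays, 609.5 and 658.3 on the heterozygous arrays and 282.7 and 442.1 on the wild-type arrays. The log2 fold change of Lgmn in heterozygous against wild type, 0.84 ± 0.23, did not pass (limma adjusted p = 0.236) and was not computed without wild-type array 1.

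**Figure D4:**
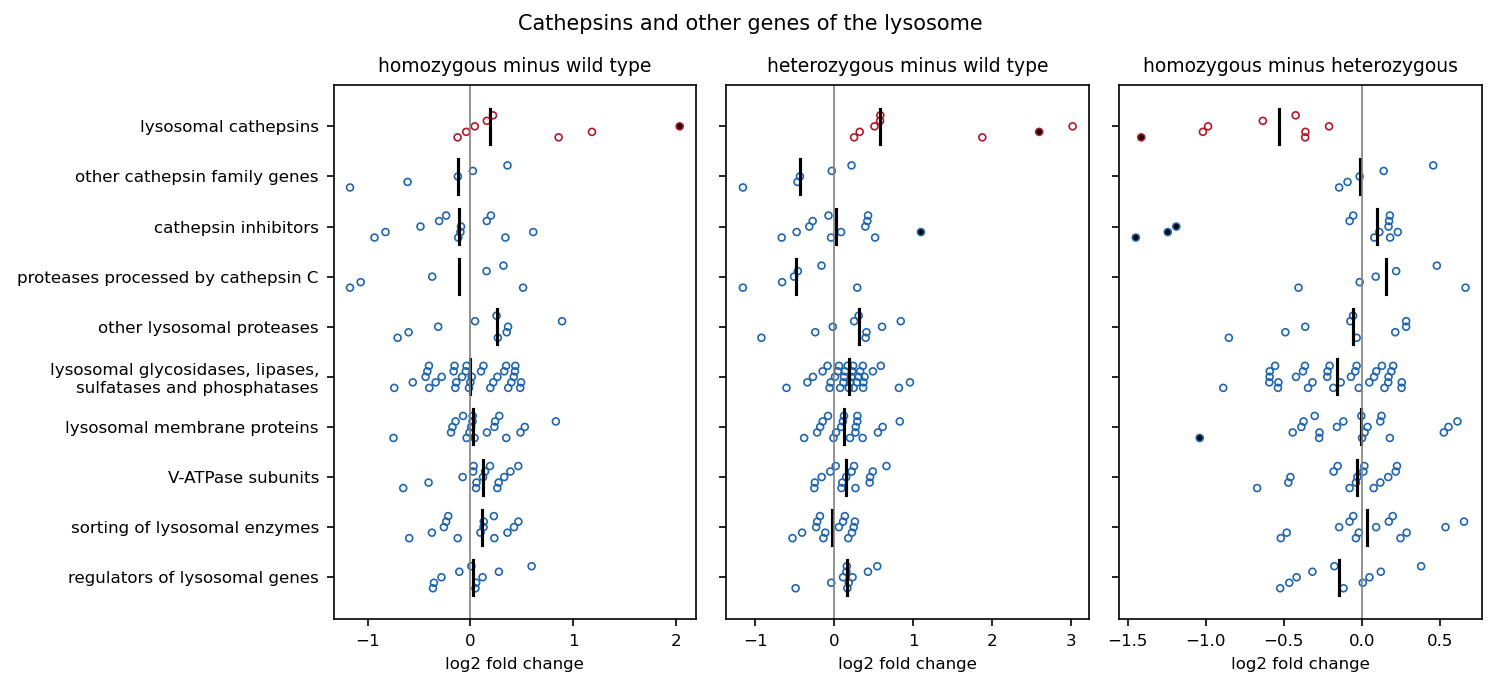
Log2 fold changes of single genes (points) in 10 lists of cathepsin and lysosomal genes, in 3 comparisons of the labels, with the median of each list, Ctsc included, as a black bar. Filled points passed an adjusted p of 0.05, and Ctsc is drawn open where it was not tested. Points of the cathepsins are red, and the highest in heterozygous minus wild type, 3.02, is the value of Ctsc that chose it. The median of the 7 other tested cathepsins there is 0.58, or 0.22 without wild-type array 1. The median of the other lysosomal proteases is 0.31, and those of the enzyme, membrane and V-ATPase lists are 0.19, 0.12 and 0.15. The list medians were not computed without that array, and the difference between lists was not tested.

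Ctss and several other cathepsins are abundant in microglia, so markers of other cells were read beside them. In a culture, fewer cells of a type and less RNA per cell cannot be told apart. Of 15 tested microglia and macrophage markers 0 exceeded the background reference on all 6 arrays and 14 were dim on all 6, among them Aif1, Cx3cr1, Tyrobp and Trem2. On such dim probes Cd14 and P2ry12 passed as higher in homozygous against wild type, as did 0.431% of all probes. In heterozygous against wild type Cd14 passed as higher and Cx3cr1 as lower, where 0.749% of all probes passed in either direction. In homozygous against heterozygous P2ry12 passed as higher, where 2.69% of all probes passed in either direction. There 12 of the 15 markers lay above 0, where 54.5% of all probes did. The summed intensity of the 15 markers was 246.6 and 268.1 on the homozygous arrays, 237.7 and 203.7 on the heterozygous arrays and 211.7 and 248.5 on the wild-type arrays. The part of these cells in the cathepsin values was not tested.

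The 10 astrocyte markers summed to 10182.6 and 9176.5 on the homozygous arrays, 9896.9 and 9777.9 on the heterozygous arrays and 10262.5 and 11521.5 on the wild-type arrays. The heterozygous sums thus lay under the wild-type sums. Yet the median log2 fold change in heterozygous against wild type was 0.84, with 7 above 0 and 0 called by limma. There 7 had an unadjusted limma p under 0.05, 6 as higher and 1 as lower, where 13.5% of all probes did. In homozygous against wild type their median was -0.09, and 1 passed as higher, Sparcl1, as did 0.431% of all probes. In homozygous against heterozygous the median was -0.48, and 7 had an unadjusted p under 0.05, 2 as higher and 5 as lower, where 18.2% of all probes did. There Sparcl1 passed as higher and Ndrg2 and Aqp4 as lower, where 2.69% of all probes passed in either direction. Aqp4 was dim on both homozygous arrays, at 14.3 and 8.0, and on heterozygous array 2, at 45.5. Sparcl1 read 1324.9 and 1300.9 on the homozygous arrays, 128.4 and 198.3 on the heterozygous arrays and 55.9 and 85.0 on the wild-type arrays.

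The 15 fibroblast, meningeal and mural markers summed to 437.1 and 431.4 on the homozygous arrays, 825.1 and 924.2 on the heterozygous arrays and 1642.9 and 1451.0 on the wild-type arrays, and 10 of them were dim on all arrays. Without the smooth muscle actin gene Acta2 the sums were 349.1 and 312.9, 547.6 and 639.6, and 413.4 and 556.2 in the same order, and the median log2 fold change in heterozygous against wild type was -0.07 over the 15. The lower sum of heterozygous than of wild-type arrays thus lay in Acta2. In homozygous against wild type 1 of the 15 lay above 0, with a median of -0.59. The homozygous sums lay under the wild-type sums without Acta2 too. Acta2 passed as lower in every comparison, and Foxc1, a dim probe, as lower in homozygous against heterozygous. Of all probes 0.92%, 0.749% and 2.69% passed in either direction, in homozygous and heterozygous against wild type and in homozygous against heterozygous. The 11 neuron markers summed to 5423.1 and 5344.8 on the homozygous arrays, 4091.8 and 5419.9 on the heterozygous arrays and 2123.2 and 2104.0 on the wild-type arrays, and 8 were dim on all 6. Without the growth cone gene Gap43 they were 613.9 and 548.7, 309.4 and 281.1, and 365.2 and 325.1 in the same order. In heterozygous against wild type 4 of the 11 lay above 0, with a median of -0.11. Gap43 passed as higher and the neuronal intermediate filament gene Ina as lower (limma adjusted p = 0.0464 and 0.0469), where 0.749% of all probes passed. In homozygous against wild type 8 lay above 0, with a median of 0.38. Gap43, Elavl4 and Ina passed as higher there, as did 0.431% of all probes. In homozygous against heterozygous 10 lay above 0, with a median of 0.39. Ina and Elavl4 passed as higher there, where 2.69% of all probes passed in either direction. Of 8 oligodendrocyte lineage markers Ugt8a, dim on all 6 arrays, passed as lower in heterozygous against wild type (limma adjusted p = 0.0464). It passed as higher in homozygous against heterozygous (0.0205). Of 6 endothelial markers 0 passed in any comparison. The part of these markers in the cathepsin values was not tested.

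The genes patterned most like Ctsc were found by Pearson's r of log2 intensity over the 6 arrays, among 302 named genes with a genotype mean over 100 and genotype means at least 1 log2 unit apart. They were Haus4, a subunit of the augmin complex of the spindle (r = 0.975), the interferon-induced membrane protein gene Ifitm3 (0.972), the kinase gene Pak3 (0.965), the secreted matrix protein gene Ccdc80 (0.949) and the DNA polymerase epsilon subunit gene Pole4 (0.948). Ifitm3 read 695.0 and 690.9 on the homozygous arrays, 1150.9 and 1314.5 on the heterozygous arrays and 262.3 and 364.4 on the wild-type arrays. The order of labels in Ifitm3 was thus that of Ctsc, without overlap. Among the same genes Ctsz ranked 7 with r = 0.938 and Ctsh ranked 13 with r = 0.913. Ctsz exceeded the level of 100 only in the mean of its heterozygous arrays. The remaining tested cathepsins, with genotype means under 1 log2 unit apart, could not be ranked. The pattern of Ctsc includes the heterozygous values that chose it, so these ranks are no support for a family pattern. The 6 points share 3 labels with 2 arrays each, and these likenesses describe the arrays and carry no test.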

How the data were processed

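Transcript levels were measured in 6 samples, 2 arrays for each Ecrg4 label. The authors deposited linear 1-colour intensity values, and the median of measured probes was 30 in every column, which points to scaling of the arrays to 1 median. Amplified amino allyl aRNA was dye-coupled, per the labels' protocols, though the labels also give biotin. The sources used here do not give the scanner, the background correction or the rule for blank cells. The number of arrays limits the precision.

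Intensities were log2-transformed without a pseudocount. Probes with any blank, 3032 in number, were left out, and 20434 were tested. In R 4.3.3, limma 3.58.1 fitted 1 coefficient per label over the 6 arrays (eBayes moderation, 3 residual and 3.27 prior degrees of freedom). Two-sided p-values were adjusted by Benjamini-Hochberg over all tested probes, and the threshold was 0.05. Errors are standard errors of the fit. Scripts were tested on simulated data. A bound of a fold sets dim arrays at their olfactory receptor 95th percentile.

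Symbols came from the platform annotation, updated through synonyms of a RefSeq gene table (GRCm38.p6): 3943 of 16625 were replaced. Where a gene had several probes, lists took the brightest on average. The members and lists were chosen with earlier results of these data known. The rule for names took all members, Ecrg4, up to 3 passing genes of each list and comparison, and 5 genes like Ctsc. Ctso, Ctsg, Lgmn, Tfeb, Tfe3, Mitf and dim or leading markers were named outside it, after their values were seen. The list of other lysosomal proteases also holds Gzf1, a zinc finger gene listed in error, and Pcyox1, an oxidase, and neither passed. Alternatives changed the pseudocount, scaling, filters, variance prior, arrays fitted and replicate block, and left out each array. The setting without dim probes kept those above the background reference on both arrays of at least 1 label. Ctsc and Ctsz, dim in wild type, were kept through the labels where they were higher, so their calls in that setting are no added support.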

Additional observations from a re-analysis of the deposited data

How the results depend on the processing

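Over 13 alternatives, 18 of 24 differences (8 cathepsins in 3 comparisons) kept their sign, and 10 of 312 values changed sign, none of which passed. Many of these values could not change sign. Settings that alter only the spread, the probes tested, the replicate block or arrays outside the comparison return the same difference. The counts also hold the heterozygous differences of Ctsc, which chose it, so they do not measure stability. Quantile normalization gave Ctsd 0.0041 and Ctsb 0.0111 in homozygous minus wild type. With arrays left out in turn, that comparison ranged from -0.14 to 0.58 for Ctsa, -0.14 to 0.22 for Ctsf, -0.39 to 0.71 for Ctsl, -0.34 to 0.0914 for Ctsd and -0.37 to 0.28 for Ctsb, and Ctsb ranged from -0.0048 to 0.65 in heterozygous minus wild type. Ctsc in homozygous minus wild type lay between 1.91 and 2.15 with arrays left out, and its adjusted p over all alternatives between 9.63e-05 and 0.123.

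Counts of probes passing moved widely, and the cause was not tested. The setting without dim probes tested 9399 probes and that with blanks filled 23466, against 20434 in the others. In each comparison more of all probes passed too with the pseudocount, without dim probes or with the trend. The cathepsin counts are thus no measure of stability, and Ctsc is counted only in homozygous minus wild type. In homozygous minus wild type 188 became 1143 with a pseudocount of 16, 328 with quantile normalization, 875 without dim probes, 88 with blanks filled, 1094 with an intensity trend and robust prior, 59 with the arrays compared, and 1 to 224 with arrays left out. In heterozygous minus wild type 153 became 306 with the pseudocount, 400 with the trend, 40 with the arrays compared, and 18 to 340. In homozygous minus heterozygous 549 became 1376 with the pseudocount, 998 without dim probes, 320 with blanks filled, 1357 with the trend, and 6 to 680. Cathepsins passing in homozygous minus wild type were 1, and 2 with the pseudocount, without dim probes or with the trend, and 0 to 1 with arrays left out. In heterozygous minus wild type, Ctsc aside, they were 1, and 2 under those settings and quantile normalization, and 0 to 1 with arrays left out. In homozygous minus heterozygous, Ctsc aside, they were 1, 2 with the pseudocount or without dim probes, 3 with the trend, 0 with blanks filled or the arrays compared, and 0 with any array left out.

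The titles number the replicates, but same-numbered arrays did not deviate together (r = 0.01, 0.02 and -0.08 over 20434 probes). With the replicate block 47, 51 and 244 probes passed, and 1, 0 and 0 cathepsins, for homozygous and then heterozygous against wild type, and last for homozygous against heterozygous. Signal near background limits Ctsc and Ctsz in wild type, where fitted folds rest on dim values and bounds are given beside them, and Ctsk and Ctss on all arrays.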

Other observations

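Cathepsin C is known for activating serine proteases of leukocyte granules, and the probes of those proteases were dim throughout. Of 6 tested, all 6 were under the olfactory receptor reference on each of the arrays. Ctsg, the neutrophil granule protease cathepsin G, named after its values were seen, read 4.1 and 8.2 on the homozygous arrays, 5.9 and 5.8 on the heterozygous arrays and 13.0 and 13.1 on the wild-type arrays. It did not pass in any comparison, and no change is read from values this close to background.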
